A study of Mus musculus with 12 samples.

Results

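Early response genes are switched on within minutes of a stimulus, without new protein synthesis, and many of their messages carry AU-rich elements in the 3′ untranslated region that mark them for rapid decay. The 10 genes described here were chosen by name from a table of 48709 genes: the Krüppel-like factors Klf2, Klf4, Klf6 and Klf10, the RNA-binding proteins Zfp36, Zfp36l1 and Zfp36l2, the immediate early response genes Ier2 and Ier3, and the antiproliferative gene Btg2. All 10 were in the table and all 10 had enough counts to be tested, among 17294 genes tested. Message stability was not measured, so "short-lived" is background and not a property read from these data.

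RNA was sequenced from pancreatic islets of female mice, genotype NSG RIP-DTR Htz, in 4 groups of 3 libraries. Mice given diphtheria toxin (DT) were sampled at 1, 3 and 5 DPA, which is taken to mean days post-ablation, and CTRL mice were untreated. NSG mice are immunodeficient and lack functional lymphocytes. Among lymphocyte markers, Cd3e had 0 counts in all 12 libraries and Cd3g and Ncr1 had 7 and 11 counts in total, while Cd4 (5184 counts) and the B cell gene Cd79a (3699 counts) were detected in every library, and Cd8a (112 counts) and Ms4a1 (36 counts) in 8 of 12. In RIP-DTR mice the rat insulin promoter drives the receptor for the toxin, so the toxin acts on beta cells, and every group, CTRL included, carried the transgene. The sources used here do not state age, or whether a library came from 1 animal or a pool; a streptozotocin arm was not analysed here. The study asked how islets respond at the molecular level when part of their beta cells is lost.

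Library totals ran from 29867083 to 50012558 counts. All 10 beta cell markers, Ins1 and Ins2 included, were detected in all 12 libraries, and 8 of the 10 fell at 1 DPA, 3 at 3 DPA and 5 at 5 DPA against CTRL. Acinar markers summed to 34288, 58250 and 9229 CPM in CTRL, 44694, 21893 and 4675 CPM at 1 DPA, 8077, 11358 and 3895 CPM at 3 DPA and 6962, 12240 and 25075 CPM at 5 DPA, and none of 12 was called against CTRL by edgeR. The part of beta cell loss and of acinar cells in the member changes was not tested beyond an acinar covariate. The CTRL libraries were not alike: the 12 markers of macrophages summed to 618, 401 and 149 CPM (counts scaled to library size) in CTRL replicates 1 to 3, the 12 of stellate cells, fibroblasts and pericytes to 2471, 1885 and 799 CPM, and 12 classical immediate early genes such as Fos, Jun and Egr1 to 968, 414 and 511 CPM. CTRL replicate 1 was thus high in immediate early genes and CTRL replicate 3 low in stromal and macrophage genes, and members whose calls against CTRL changed without either of them are named with those results. Because these are bulk samples, fewer cells of a type and less RNA per cell cannot be told apart.

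The KLF proteins are zinc finger transcription factors that bind GC-rich and CACCC sequences. Klf2 and Klf4 are known from endothelium, where blood flow maintains them, Klf6 is induced in injured tissue, and Klf10 was found as a TGF-beta inducible early gene. The ZFP36 proteins bind AU-rich elements and recruit the CCR4-NOT deadenylase, which shortens the poly(A) tail and leads to decay; the messages of the family carry such elements themselves. Btg2, a target of p53, also binds that deadenylase. Ier2 is a nuclear early response protein, and Ier3 modulates cell survival under stress.

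In the annotation of the mouse genome used here (GENCODE M21, mm10), the 4 KLF genes were Klf2 (ENSMUSG00000055148, chromosome 8, 72319033 to 72321656, plus strand), Klf4 (ENSMUSG00000003032, chromosome 4, 55527143 to 55532466, minus strand), Klf6 (ENSMUSG00000000078, chromosome 13, 5861482 to 5870394, plus strand) and Klf10 (ENSMUSG00000037465, chromosome 15, 38291463 to 38300706, minus strand). The ZFP36 genes were Zfp36 (ENSMUSG00000044786, chromosome 7, 28376784 to 28380253, minus strand), Zfp36l1 (ENSMUSG00000021127, chromosome 12, 80107754 to 80113013, minus strand) and Zfp36l2 (ENSMUSG00000045817, chromosome 17, 84183931 to 84187947, minus strand). The remaining members were Ier2 (ENSMUSG00000053560, chromosome 8, 84661331 to 84662852, minus strand), Ier3 (ENSMUSG00000003541, chromosome 17, 35821684 to 35822923, plus strand) and Btg2 (ENSMUSG00000020423, chromosome 1, 134075170 to 134079120, minus strand). These are compact genes: 7 of the 10 had 3 or fewer exons in the transcript used, against 15.2% of 15755 tested genes, and Ier2 had 1 exon of 1522 bases. Antisense genes overlap exons of Zfp36 (Gm44710), Zfp36l1 (Gm26669) and Zfp36l2. Whether counting used strand is not known, so reads of these pairs cannot be told apart, but Gm44710 had 1 to 11 counts a library and Gm26669 had 1 to 23. Counts of the gene that overlaps Zfp36l2 are not given here, so this limit stands for Zfp36l2.

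All 3 ZFP36 messages held, in their 3′ untranslated regions, the nonamer to which ZFP36 proteins are known to bind, which 7.42% of 14586 tested genes with at least 100 bases of such sequence held. The sites are shown because they tie the family to its own binding motif; capitals mark the nonamer, and each is the annotated sense strand (GENCODE M21).
Zfp36: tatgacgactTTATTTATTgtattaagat
Zfp36l1: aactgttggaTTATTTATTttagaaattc
Zfp36l2: actatttaacTTATTTATTatcttgtgaa
The shorter core ATTTA was present in 9 of the 10 members, against 68.0% of the same 14586 genes. Ier3 held 5 copies in 613 bases, or 8.16 per kb, against a median of 1.28 per kb over all genes, and its first site is shown with the core in capitals.
Ier3: tgtctaattaatATTTAtgtatttatgta
Ier2, whose 3′ untranslated region of 755 bases had the lowest A and T content of the 10 at 41.5%, held no ATTTA on the sense strand.

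Of the 10 members, 7 had a promoter (250 bases before to 50 after the start) in the RefSeq table for GRCm38.p6; Klf10, Zfp36l2 and Ier2 had no entry. Zfp36 and Zfp36l1 are shown as 1 of the closer pairs of expression profiles over the 12 libraries (difference 0.274, as given further on). Klf4 with Ier3 (0.254) and Klf4 with Klf6 (0.27) were closer, and their promoters held neither of the motifs marked below. A link of these motifs to the profiles was not tested. The Zfp36 promoter, chr7:28379179-28379478 on the minus strand, held the CArG box, the binding site of serum response factor, in capitals 58 bases before the RefSeq start. In GENCODE M21 the 5′ end of Zfp36 is at 28380253, so by that annotation this stretch lies inside the gene.
Zfp36: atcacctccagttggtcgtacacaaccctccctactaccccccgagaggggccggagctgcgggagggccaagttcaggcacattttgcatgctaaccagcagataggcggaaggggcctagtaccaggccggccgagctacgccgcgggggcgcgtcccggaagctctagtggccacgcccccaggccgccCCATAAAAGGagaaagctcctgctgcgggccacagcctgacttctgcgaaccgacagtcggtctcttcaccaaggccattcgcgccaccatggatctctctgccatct
A CArG box on either strand was found in 1.63% of 32851 promoters of the same length. The Zfp36l1 promoter, chr12:80112964-80113263 on the minus strand, held TGATTCA, in capitals 129 bases before the start. It matches TGANTCA, a loose pattern for AP-1 (Fos and Jun proteins) that allows any base at N.
Zfp36l1: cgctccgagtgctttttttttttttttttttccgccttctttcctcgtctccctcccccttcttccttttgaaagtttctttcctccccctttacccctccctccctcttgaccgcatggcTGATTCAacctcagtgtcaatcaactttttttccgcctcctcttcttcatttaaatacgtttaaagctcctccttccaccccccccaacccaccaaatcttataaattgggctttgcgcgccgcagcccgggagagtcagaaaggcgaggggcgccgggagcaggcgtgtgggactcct
TGANTCA was found on either strand in 7.81% of promoters. The Btg2 promoter held the CREB site TGACGTCA 166 bases before the start, present in 1.79% of promoters; the shorter site TGACG, which overlaps it, was also in Klf2 and Klf4 (20.8% of promoters). The E-box CACGTG was in Klf4 and Klf6 (7.15% of promoters), TATAAA was in Zfp36l1 (13.6%), and the EGR site GCGTGGGCG (0.612%) was in none of the 7 promoters. Ier3 held none of the 7 motifs searched. These are matches of letters and were not tested as binding sites.

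Against CTRL, 3 of the 10 members rose at 1 DPA, 2 at 3 DPA and 1 at 5 DPA, and none fell. Klf10 peaked at 1 DPA, Ier2 at 3 DPA, and Zfp36l2 rose modestly at 1 DPA. The other 7 members did not pass the threshold at any time against CTRL. Of all 17294 genes, 29.2% were higher and 22.4% lower at 1 DPA, 10.2% higher and 2.37% lower at 3 DPA, and 5.87% higher and 2.67% lower at 5 DPA, or 51.6%, 12.6% and 8.54% in either direction (edgeR's quasi-likelihood test, Benjamini-Hochberg adjusted p under 0.05 over all genes). The 1 DPA count of members, 3 of 10, is therefore close to the share of all genes that were higher, and those at 3 and 5 DPA, 2 and 1 of 10, are too small to set apart from it. The median log2 fold change of the 10 members was -0.021 at 1 DPA, against -0.049 for all genes; it was 0.45 at 3 DPA, against -0.0069, and 0.48 at 5 DPA, against 0.014. These 3 comparisons share the same CTRL libraries.

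**Figure D1:**
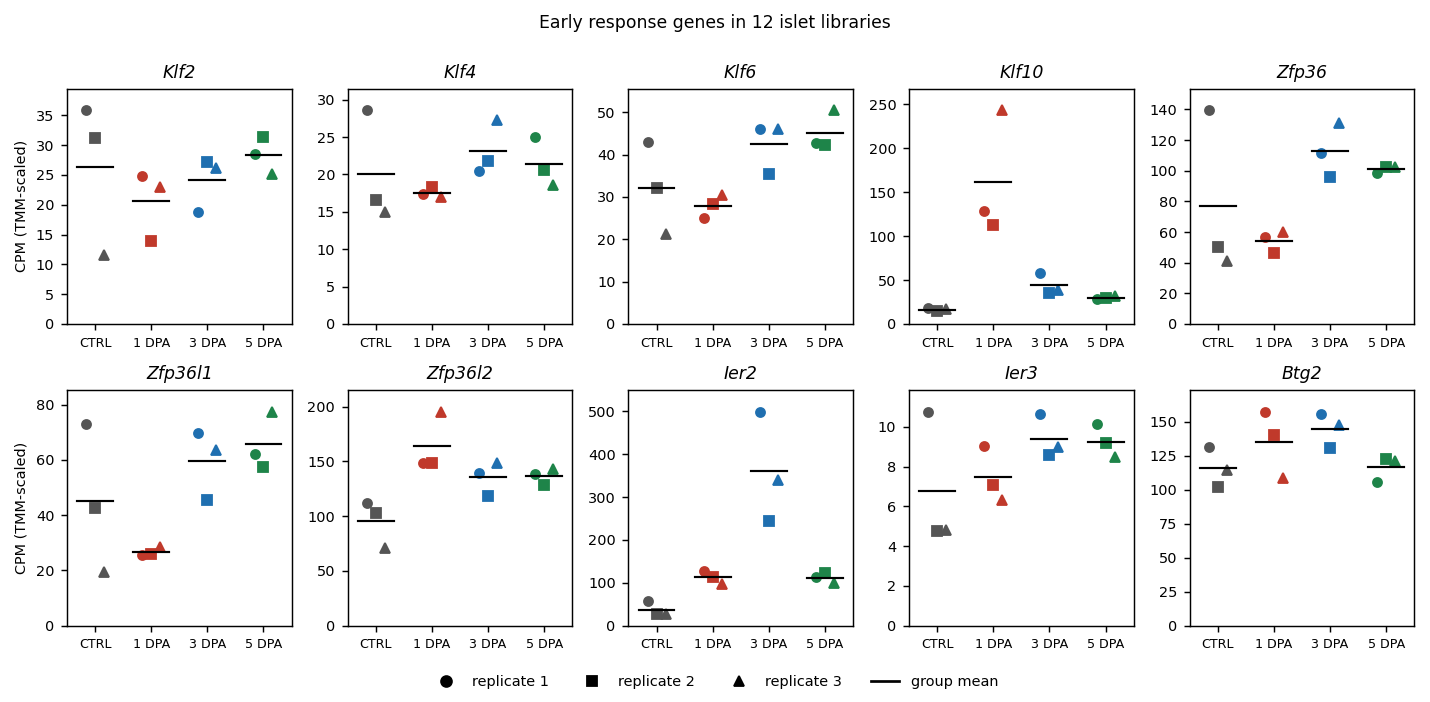
CPM (scaled by TMM; linear axis from 0) of the 10 members in each of 12 libraries, by group; symbols give the replicate and bars the group mean. Klf10 stands highest at 1 DPA (128, 113 and 244 CPM) and Ier2 at 3 DPA (499, 243 and 339 CPM), while CTRL replicate 1 is the highest CTRL library for all 10 members.

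Klf10 had the largest change of the 4 KLF members. Klf10 had 17.7, 14.2 and 17.3 CPM in the CTRL libraries, 128, 113 and 244 CPM at 1 DPA, 58.3, 35.2 and 38.9 CPM at 3 DPA and 28.7, 29.4 and 31.5 CPM at 5 DPA. Each treated group lay above all CTRL libraries, 1 DPA highest and with replicate 3 apart from replicates 1 and 2. Klf10 was 9.85-fold higher at 1 DPA than in CTRL (log2 fold change 3.30 ± 0.31 SE, edgeR adjusted p = 1.48e-05) and 2.69-fold higher at 3 DPA (log2 fold change 1.43 ± 0.29 SE, edgeR adjusted p = 0.00963). At 5 DPA it was 1.82-fold above CTRL, which did not pass (log2 fold change 0.86 ± 0.29 SE, edgeR adjusted p = 0.0998), although every 5 DPA library exceeded every CTRL library; the call was made with DESeq2 (adjusted p = 0.0101), with only those 6 libraries in the fit (adjusted p = 0.0138) and without 1 DPA replicate 3 (adjusted p = 0.0202). The decline between times was called: Klf10 was 3.66-fold lower at 3 DPA than at 1 DPA (log2 fold change -1.87 ± 0.29 SE, edgeR adjusted p = 0.0006) and 5.42-fold lower at 5 DPA than at 1 DPA (log2 fold change -2.44 ± 0.30 SE, edgeR adjusted p = 8.92e-05). Between 5 and 3 DPA the difference did not pass (log2 fold change -0.57 ± 0.28 SE, edgeR adjusted p = 0.342). With a covariate of acinar marker level the 3 DPA call against CTRL ended (edgeR adjusted p = 0.0573), and with a covariate of endothelial marker level those of 3 and 5 against 1 DPA ended (edgeR adjusted p = 0.248 and edgeR adjusted p = 0.27).

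Klf6 did not differ from CTRL past the threshold at any time, and differed between treated groups. Klf6 had 42.9, 32.03 and 21.1 CPM in the CTRL libraries, 25.0, 28.3 and 30.3 CPM at 1 DPA, 46.1, 35.4 and 46.1 CPM at 3 DPA and 42.6, 42.3 and 50.5 CPM at 5 DPA. The CTRL libraries overlapped each treated group, and 1 DPA lay below 3 and 5 DPA. Klf6 was 1.53-fold higher at 3 DPA than at 1 DPA (log2 fold change 0.61 ± 0.21 SE, edgeR adjusted p = 0.0387) and 1.62-fold higher at 5 DPA than at 1 DPA (log2 fold change 0.70 ± 0.21 SE, edgeR adjusted p = 0.0179), with no overlap of libraries in either comparison. The call at 3 against 1 DPA ended in 8 of 12 fits that left out 1 library, among them each of the 3 libraries at 1 DPA (adjusted p = 0.12 without 1 DPA replicate 1), and that at 5 against 1 DPA without 1 DPA replicate 1 (adjusted p = 0.0647) or 5 DPA replicate 3 (adjusted p = 0.0592).

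The endothelial factors Klf2 and Klf4 passed in no comparison with all libraries in the fit. Klf2 had 35.9, 31.3 and 11.6 CPM in the CTRL libraries, 24.9, 13.9 and 23.0 CPM at 1 DPA, 18.8, 27.2 and 26.2 CPM at 3 DPA and 28.6, 31.3 and 25.2 CPM at 5 DPA. CTRL replicate 3 was the lowest of the 12 libraries for Klf2. Klf4 had 28.6, 16.6 and 14.9 CPM in the CTRL libraries, 17.3, 18.3 and 17.03 CPM at 1 DPA, 20.4, 21.8 and 27.2 CPM at 3 DPA and 25.1, 20.6 and 18.5 CPM at 5 DPA. The groups overlapped for both genes against CTRL. Klf2 log2 fold changes against CTRL were -0.35 ± 0.37, -0.12 ± 0.37 and 0.11 ± 0.37 (SE) at 1, 3 and 5 DPA, and those of Klf4 were -0.19 ± 0.22, 0.21 ± 0.22 and 0.099 ± 0.22. Klf4 at 3 against 1 DPA (log2 fold change 0.40 ± 0.22 SE, edgeR adjusted p = 0.16) was called without CTRL replicate 1 (log2 0.41, adjusted p = 0.0232, edgeR) and with only the 2 groups compared (edgeR adjusted p = 0.0179), as was 5 against 1 DPA in that last fit (edgeR adjusted p = 0.0449).

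Ier2 gave the largest member change at 3 and 5 DPA. Ier2 had 58.1, 26.3 and 27.8 CPM in the CTRL libraries, 127, 113 and 97.0 CPM at 1 DPA, 499, 243 and 339 CPM at 3 DPA and 114, 123 and 98.8 CPM at 5 DPA. No treated library overlapped CTRL, and 3 DPA replicate 1 had the highest value of all. Ier2 was 3.01-fold higher at 1 DPA than in CTRL (log2 fold change 1.59 ± 0.34 SE, edgeR adjusted p = 0.00338), 9.64-fold higher at 3 DPA (log2 fold change 3.27 ± 0.36 SE, edgeR adjusted p = 0.000293) and 2.99-fold higher at 5 DPA (log2 fold change 1.58 ± 0.34 SE, edgeR adjusted p = 0.0228). It was 3.21-fold higher at 3 DPA than at 1 DPA (log2 fold change 1.68 ± 0.34 SE, edgeR adjusted p = 0.00303) and 3.22-fold lower at 5 DPA than at 3 DPA (log2 fold change -1.69 ± 0.34 SE, edgeR adjusted p = 0.0334). The 5 DPA and 1 DPA levels, 112 ± 12.1 and 112 ± 15.1 CPM (SD, n = 3 each), did not differ past the threshold (log2 fold change -0.0082 ± 0.33 SE, edgeR adjusted p = 0.984).

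Some of the Ier2 calls rested on particular libraries. The 5 DPA call against CTRL ended without CTRL replicate 2 (adjusted p = 0.0771), CTRL replicate 3 (0.0864), 5 DPA replicate 1 (0.0785) or 5 DPA replicate 2 (0.057). That of 5 against 3 DPA ended in 7 of 12 fits that left out 1 library (adjusted p up to 0.141). That of 3 against 1 DPA ended with a macrophage covariate (edgeR adjusted p = 0.144) and an endothelial covariate (edgeR adjusted p = 0.669). The edgeR calls of Ier2 at 1 and 3 DPA against CTRL, like those of Klf10 and Zfp36l2 at 1 DPA, were made in all 22 other settings tried. The summed level of the classical immediate early genes was also highest at 3 DPA, with 2985, 3160 and 2488 CPM at 1 DPA, 14410, 7679 and 10254 CPM at 3 DPA and 4216, 4480 and 3352 CPM at 5 DPA. Heat shock genes of cell dissociation summed to 989, 1005 and 1013 CPM at 1 DPA, 1315, 1204 and 1541 CPM at 3 DPA and 1216, 1304 and 1468 CPM at 5 DPA, and to 944, 1514 and 857 CPM in CTRL, where replicate 2 exceeded every treated library but 3 DPA replicate 3. Of these 8 genes, 1 was lower than in CTRL at 1 DPA (Hspb1, -0.80 ± 0.30) and 0 passed at 3 DPA. At 5 DPA 2 were higher, Hspa1a (0.99 ± 0.16) and Hspa1b (0.97 ± 0.15, log2 fold change ± SE). Of all genes, 22.4% were lower at 1 DPA and 5.87% higher at 5 DPA. The part of islet handling in the Ier2 levels was not tested.

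Ier3, which had the lowest mean CPM of the 10 in every group, passed in no comparison with all libraries in the fit. Ier3 had 10.8, 4.75 and 4.79 CPM in the CTRL libraries, 9.06, 7.07 and 6.31 CPM at 1 DPA, 10.7, 8.57 and 8.97 CPM at 3 DPA and 10.1, 9.16 and 8.47 CPM at 5 DPA. CTRL replicate 1 was the highest of the 12 libraries, and CTRL replicates 2 and 3 were the lowest. The log2 fold changes against CTRL, 0.15 ± 0.28, 0.48 ± 0.28 and 0.45 ± 0.28 (SE) at 1, 3 and 5 DPA, did not pass. Without CTRL replicate 1 each of the 3 was called (log2 0.61, 0.95 and 0.95, edgeR adjusted p = 0.0164, 0.00607 and 0.0109).

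Among the ZFP36 genes, Zfp36l2 rose at 1 DPA. Zfp36l2 had 112, 103 and 70.6 CPM in the CTRL libraries, 148, 148 and 195 CPM at 1 DPA, 139.7, 118 and 149 CPM at 3 DPA and 139, 129 and 143 CPM at 5 DPA. Every treated library lay above every CTRL library. Zfp36l2 was 1.72-fold higher at 1 DPA than in CTRL (log2 fold change 0.78 ± 0.17 SE, edgeR adjusted p = 0.00242). At 3 DPA (log2 fold change 0.51 ± 0.17 SE, edgeR adjusted p = 0.073) and 5 DPA (log2 fold change 0.52 ± 0.17 SE, edgeR adjusted p = 0.0781) the difference did not pass, and DESeq2 called both (adjusted p = 0.0228 and 0.017).

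Zfp36, which encodes tristetraprolin, was spread more widely in CTRL than in any treated group. Zfp36 had 139.7, 50.3 and 40.8 CPM in the CTRL libraries, 56.4, 46.5 and 60.2 CPM at 1 DPA, 112, 96.1 and 131 CPM at 3 DPA and 98.8, 103 and 103 CPM at 5 DPA. CTRL replicate 1 was the highest of all 12 libraries, and all 3 and 5 DPA libraries lay above all 1 DPA libraries. Zfp36 was 2.08-fold higher at 3 DPA than at 1 DPA, at the edge of the threshold (log2 fold change 1.05 ± 0.39 SE, edgeR adjusted p = 0.054), and DESeq2 called this difference (adjusted p = 0.0377). At 5 DPA it was 1.86-fold higher than at 1 DPA, which did not pass (log2 fold change 0.90 ± 0.39 SE, edgeR adjusted p = 0.0786). Both differences were called without CTRL replicate 1 (log2 1.07, adjusted p = 0.000128, and log2 0.94, adjusted p = 0.000197), without CTRL replicate 3 (edgeR adjusted p = 0.0249 and edgeR adjusted p = 0.0397) and with only the 2 groups compared (edgeR adjusted p = 0.000411 and edgeR adjusted p = 6.58e-05) and with library sizes without the 50 most abundant genes (edgeR adjusted p = 0.0374 and edgeR adjusted p = 0.046), and that of 3 against 1 DPA also without CTRL replicate 2 (edgeR adjusted p = 0.0486). Against CTRL it did not pass at 1, 3 or 5 DPA (log2 -0.50 ± 0.39, 0.55 ± 0.39 and 0.40 ± 0.39, SE). Without CTRL replicate 1 the 3 DPA and 5 DPA differences were called (log2 1.28, adjusted p = 0.000634, and log2 1.15, adjusted p = 0.0037, edgeR), and the 1 DPA value changed sign to 0.21.

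Zfp36l1 differed between the treated times and not, past the threshold, from CTRL. Zfp36l1 had 73.1, 42.5 and 19.4 CPM in the CTRL libraries, 25.6, 25.9 and 28.6 CPM at 1 DPA, 69.8, 45.5 and 63.8 CPM at 3 DPA and 62.2, 57.3 and 77.5 CPM at 5 DPA. The 1 DPA libraries were close to each other and below all 3 and 5 DPA libraries, while CTRL ran from the lowest value of the 12 in replicate 3 to nearly the highest in replicate 1. Zfp36l1 was 2.24-fold higher at 3 DPA than at 1 DPA (log2 fold change 1.16 ± 0.39 SE, edgeR adjusted p = 0.0356) and 2.46-fold higher at 5 DPA than at 1 DPA (log2 fold change 1.30 ± 0.39 SE, edgeR adjusted p = 0.0183). The first call ended without any 1 of the 3 libraries at 1 DPA (adjusted p = 0.0952, 0.0902 and 0.0773) or without 3 DPA replicates 1 or 3 (0.0993 and 0.0856). The second ended without 1 DPA replicates 1 or 2 or 5 DPA replicate 3 (adjusted p = 0.0559, 0.0537 and 0.0557).

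Btg2 was among the most abundant members and passed in no comparison. Btg2 had 132, 102 and 114 CPM in the CTRL libraries, 157, 140.4 and 109 CPM at 1 DPA, 156, 131 and 147 CPM at 3 DPA and 106, 122 and 121 CPM at 5 DPA. The log2 fold changes against CTRL were 0.23 ± 0.13, 0.32 ± 0.13 and 0.0062 ± 0.13 (SE) at 1, 3 and 5 DPA, none past the threshold. All 5 DPA libraries lay below all 3 DPA libraries, a difference that did not pass either (log2 fold change -0.31 ± 0.13 SE, edgeR adjusted p = 0.249).

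**Figure D2:**
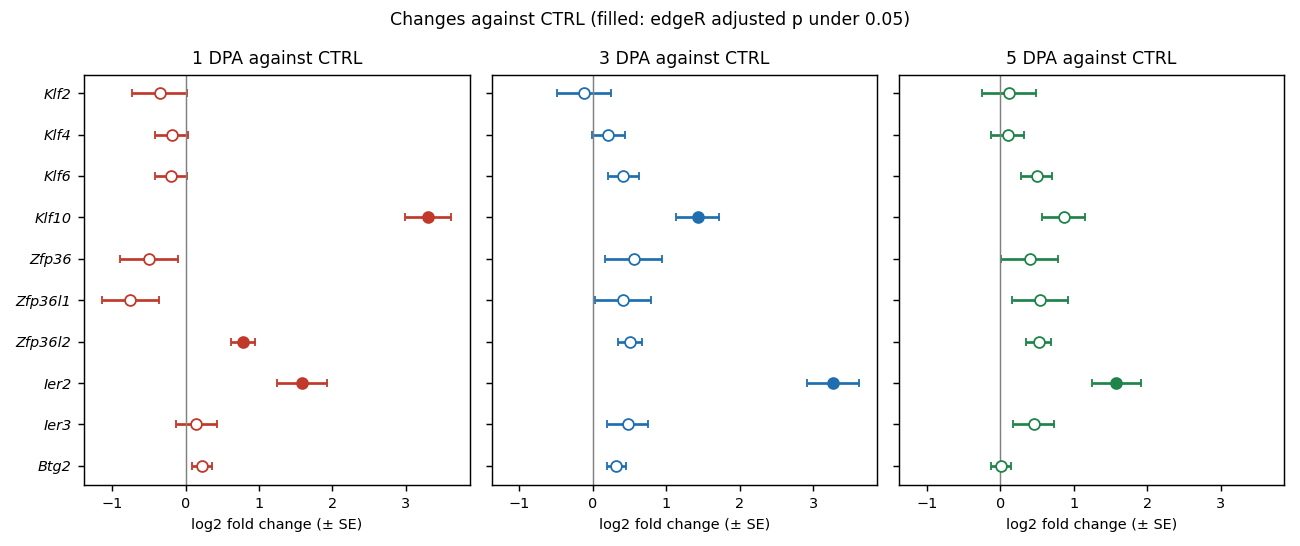
Log2 fold change (± SE, edgeR) of the 10 members at 1, 3 and 5 DPA against CTRL; filled points passed an adjusted p of 0.05 over 17294 genes. Filled points are Klf10, Zfp36l2 and Ier2 at 1 DPA, Klf10 and Ier2 at 3 DPA, and Ier2 at 5 DPA.

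Klf10, Zfp36l2 and Ier2 lay above CTRL in every library at 1, 3 and 5 DPA, as did 31.1%, 17.9% and 16.5% of all genes, and no member lay below CTRL in every library, as did 23.5%, 11.1% and 12.2%. At 3 against 1 DPA, 5 members lay above and 1 below in every library, against 30.0% and 29.3% of all genes. At 5 against 1 DPA, 5 lay above and 2 below, against 32.2% and 33.8%, and at 5 against 3 DPA, 0 lay above and 3 below, against 2078 of 17294 genes above and 16.5% below. The 3 of 10 members above CTRL at 1 DPA are close to the share of all genes.

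Between treated times, 3 members were higher and 1 lower at 3 DPA than at 1 DPA, where 20.4% of all genes were higher and 24.7% lower (45.1% in either direction). At 5 DPA against 1 DPA, 2 were higher and 1 lower, where 26.3% of all genes were higher and 29.8% lower (56.1%). The shares of members called, 4 and 3 of 10, are not above those of all genes. At 5 DPA against 3 DPA, Ier2 was lower and no member higher, where 2.46% of genes were lower and 0.705% higher (3.16%). In that comparison, the fit with the replicate number as a block called 340 genes in place of 547 and kept Ier2 (log2 -1.63, edgeR adjusted p = 0.0248). No label states that the replicate numbers pair libraries. Over the 4 groups together, Klf6, Klf10, Zfp36l2 and Ier2 differed (edgeR F-test, adjusted p = 0.0434, 3.08e-05, 0.0125 and 0.00019), 4 of 10 members where 57.4% of all genes differed. That count was 8 without CTRL replicate 1 and 2 without 1 DPA replicate 3. The count of all genes was 8584 to 10492 over the 12 fits that left out 1 library, against 9933 with all libraries.

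The highest group mean in CPM was at 1 DPA for Klf10 and Zfp36l2, at 3 DPA for Klf4, Zfp36, Ier2, Ier3 and Btg2, and 5 DPA for Klf2, Klf6 and Zfp36l1. For no member was it CTRL. Only Klf6, Klf10, Zfp36l2 and Ier2 differed over the 4 groups with all libraries, and the order of the other 6 members' groups was not separated by this test. Ier3 had 9.40 ± 1.11 CPM at 3 DPA and 9.25 ± 0.833 CPM at 5 DPA, and Klf2 had 28.4 ± 3.06 CPM at 5 DPA and 26.2 ± 12.9 CPM in CTRL (SD, n = 3 each). In TPM, Btg2 was highest at 1 DPA (123.3 TPM, against 122.6 TPM at 3 DPA), a difference below the SD. Of all genes tested, 37.9% had their highest mean at 1 DPA, 14.4% at 3 DPA, 24.2% at 5 DPA and 23.4% in CTRL.

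Several members were spread widely within CTRL. The highest CTRL library exceeded the lowest by 3.76 times for Zfp36l1, 3.43 for Zfp36, 3.10 for Klf2, 2.26 for Ier3 and 2.21 for Ier2, against a median of 1.25 times over all genes tested. It was 1.24 times for Klf10 and 1.29 times for Btg2. Without CTRL replicate 1, 6 members were higher at 3 DPA than in CTRL (Klf4, Klf6, Klf10, Zfp36, Ier2 and Ier3) and 5 at 5 DPA (Klf6, Zfp36, Zfp36l2, Ier2 and Ier3). Klf4 then had log2 0.53, adjusted p = 0.0383, and Klf6 log2 0.65, adjusted p = 0.0458 (edgeR, 3 DPA). Without CTRL replicate 3, 3 members were lower at 1 DPA: Klf2 (log2 -0.71, adjusted p = 0.0261), Klf6 (log2 -0.42, adjusted p = 0.0338) and Zfp36l1 (log2 -1.11, adjusted p = 0.00383). The count of all genes called moved too. Over the 12 fits that left out 1 library it was 7852 to 9619 at 1 DPA, 1372 to 2801 at 3 DPA and 462 to 2137 at 5 DPA. With all libraries it was 8916, 2182 and 1477.

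**Figure D3:**
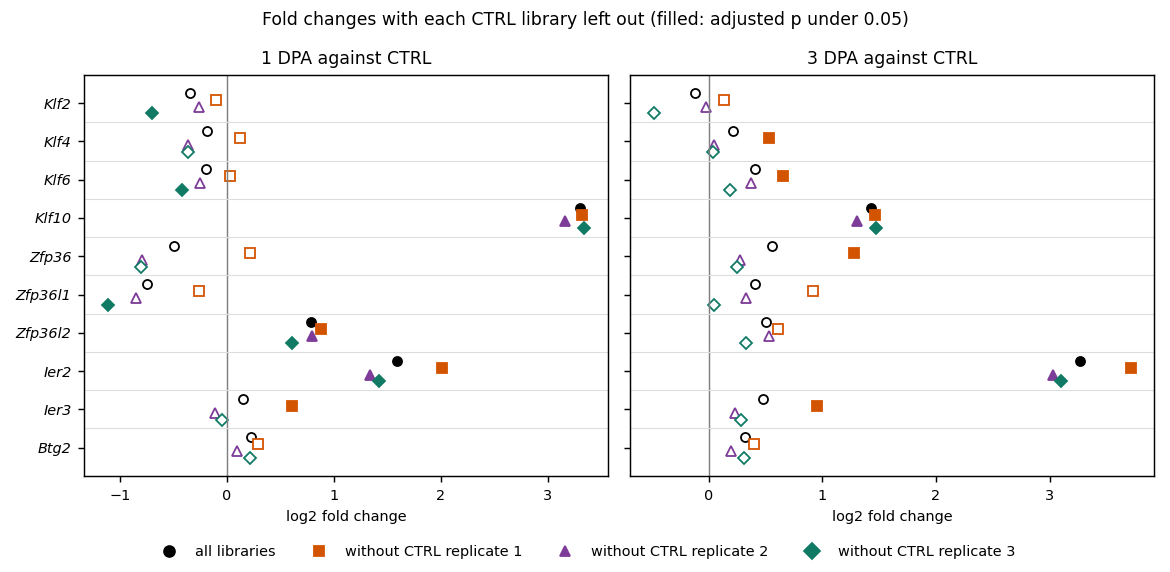
Log2 fold change of the 10 members at 1 and 3 DPA against CTRL with all libraries and without each CTRL library in turn; filled symbols passed an adjusted p of 0.05. Klf10 and Ier2 are filled in every setting shown, whereas Zfp36 at 3 DPA is 0.55 with all libraries and 1.28 without CTRL replicate 1.

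The lower Klf6 and Zfp36l1 at 1 DPA stood beside lower levels of non-endocrine cell markers. Macrophage markers summed to 118, 111 and 136 CPM at 1 DPA, 418, 244 and 414 CPM at 3 DPA and 705, 675 and 931 CPM at 5 DPA, and all 12 were higher at 3 and at 5 DPA than at 1 DPA. Markers of stellate cells, fibroblasts and pericytes summed to 847, 887 and 975 CPM at 1 DPA, 2235, 1620 and 2326 CPM at 3 DPA and 5315, 3288 and 3378 CPM at 5 DPA, with 8 of 12 higher at 3 DPA and 10 of 12 at 5 DPA than at 1 DPA. Endothelial markers summed to 733 to 797 CPM at 1 DPA, 970 to 1046 CPM at 3 DPA and 1078 to 1224 CPM at 5 DPA, against 923 to 1133 CPM in CTRL, with 9 of 10 higher at 3 DPA and 10 of 10 at 5 DPA than at 1 DPA. No marker of these 3 lists was at 0 in any library. With a macrophage score as a covariate, the value of 3 against 1 DPA was -0.17 for Klf6 and -0.23 for Zfp36l1, neither called. That of 5 against 1 DPA was then -0.56 for Klf6 (edgeR adjusted p = 0.0215) and -0.95 for Zfp36l1 (edgeR adjusted p = 0.00567), the reverse of the direction without the covariate. With a stromal or an endothelial covariate, all 4 of these calls ended. Since that score differs between the groups, the fit also takes up part of the group difference, and the part of these cells in the Klf6 and Zfp36l1 values was not tested beyond it.

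Counted per transcript length, the shares of Zfp36l2 and Klf10 in their families at 1 DPA did not overlap those in CTRL. In TPM, the authors' length-normalized unit, Zfp36l2 made up 62.9%, 65.5% and 67.3% of the ZFP36 family at 1 DPA, against 32.9%, 50.4% and 52.3% in CTRL, without overlap. It was 41.6%, 43.9% and 41.6% at 3 DPA and 44.3%, 42.8% and 42.1% at 5 DPA. The family total was 182 ± 47.7 TPM at 1 DPA, 211 ± 33.0 at 3 DPA and 212 ± 18.6 at 5 DPA, and 139 ± 66.7 TPM in CTRL (SD, n = 3 each). Zfp36 and Zfp36l1 took 22.1% ± 1.92 and 12.7% ± 0.963 of it at 1 DPA, against 32.5% ± 8.48 and 22.3% ± 4.61 in CTRL (SD, n = 3). The fourth member, Zfp36l3, was at 0 TPM in CTRL and at most 0.00671 TPM on average in any group.

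Klf10 made up 22.0%, 21.4% and 31.2% of the summed TPM of 17 KLF genes at 1 DPA, against 5.21%, 3.92% and 6.37% in CTRL. The share was 11.4% ± 2.93 at 3 DPA and 8.20% ± 0.210 at 5 DPA (SD, n = 3 each). The KLF total was 532 ± 178 TPM at 1 DPA, 293 ± 20.9 at 3 DPA and 282 ± 10.3 at 5 DPA, and 229.6 ± 24.7 TPM in CTRL. Klf2, Klf4 and Klf6 had TPM levels of 28.2 ± 8.57, 14.6 ± 1.75 and 16.9 ± 3.75 at 1 DPA and 30.5 ± 14.8, 14.3 ± 5.67 and 16.4 ± 5.70 in CTRL (SD, n = 3). Btg2 was 22.5%, 21.0% and 19.4% of the BTG and TOB family at 1 DPA, against 35.6%, 26.9% and 32.8% in CTRL, in a family total of 589 ± 22.1 TPM at 1 DPA and 288 ± 9.92 TPM in CTRL.

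**Figure D4:**
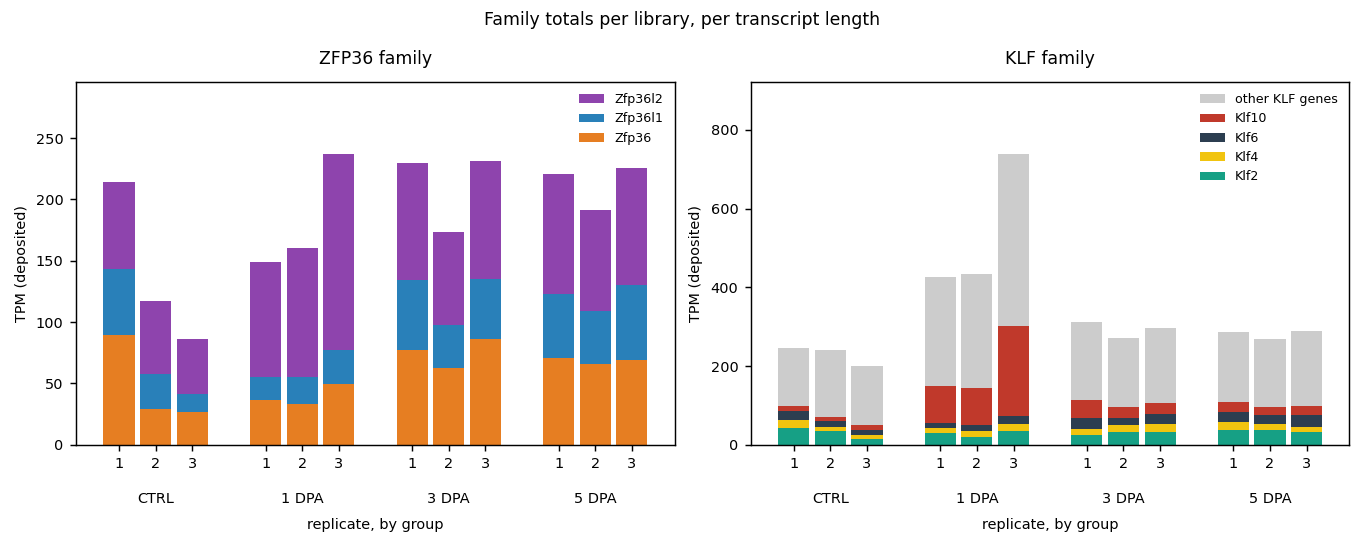
Deposited TPM, without TMM scaling, of the ZFP36 family and of 17 KLF genes in each library, stacked by gene (linear axes from 0). Zfp36l2 fills 65.2% ± 2.23 of its family at 1 DPA and 45.2% ± 10.7 in CTRL, and Klf10 fills 24.9% ± 5.48 of the KLF total at 1 DPA and 5.17% ± 1.23 in CTRL (SD, n = 3).

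On the TPM scale the most abundant member differed by group. In CTRL it was Btg2 (91.8 ± 15.8 TPM), then Zfp36l2 (58.2 ± 12.7), Ier2 (53.6 ± 27.0) and Zfp36 (48.4 ± 35.5), and the SD ranges of Ier2 and Zfp36 overlapped that of Btg2 (n = 3). Ier2 had the highest mean at 1 DPA (185 ± 1.62 TPM, where the same libraries spread more in CPM, 112 ± 15.1), 3 DPA (554 ± 218 TPM) and 5 DPA (173 ± 18.2 TPM). At 1 DPA its SD range lay within that of Klf10 (139 ± 79.0 TPM), which exceeded Ier2 in replicate 3. At 3 DPA its mean ranked 113 of the 17294 genes tested. Klf10 ranked 680 at 1 DPA and 7245 in CTRL. The lowest members in CTRL were Klf10 (11.7 ± 1.98 TPM), Ier3 (13.1 ± 6.997), Klf4 (14.3 ± 5.67) and Klf6 (16.4 ± 5.70), whose SD ranges overlapped.

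Of 19 other KLF and SP factors tested, 10 rose at 1 DPA, 2 at 3 DPA and 1 at 5 DPA, and none fell, beside 29.2%, 10.2% and 5.87% of all genes that were higher, with median log2 fold changes of 0.36, 0.077 and 0.0089. Klf15, a factor of glucocorticoid and nutrient responses, rose at 1 DPA (log2 fold change 2.17 ± 0.20 SE, edgeR adjusted p = 4.55e-06), and Klf13 (0.60 ± 0.055) and Sp3 (0.63 ± 0.057) rose by less. Klf17 had 7, 112 and 88 counts over the 3 libraries at 1, 3 and 5 DPA and 0 in CTRL, which makes it at least 35.7-fold higher at 3 DPA and at least 26.4-fold higher at 5 DPA than 3 counts, the limit that 0 allows, summed over the CTRL libraries (counting error only). Of 6 other BTG, TOB and IER genes tested, 4 rose at 1 DPA, 3 at 3 DPA and 1 at 5 DPA. Tob2, an antiproliferative relative of Btg2, averaged 157 CPM at 1 DPA and 47.6 CPM in CTRL (log2 fold change 1.72 ± 0.17 SE, edgeR adjusted p = 9.73e-06). Btg1 rose at 1 DPA (0.90 ± 0.11) and 3 DPA (0.64 ± 0.11), Tob1 at 1 DPA (0.85 ± 0.11), and Ier5 at 3 DPA (1.00 ± 0.17) and 5 DPA (0.61 ± 0.17, log2 fold change ± SE).

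ZFP36 and BTG proteins work through deadenylation and decapping enzymes. The counts of this list and of those below stand beside the shares of all genes. At 1, 3 and 5 DPA, 29.2%, 10.2% and 5.87% of all genes were higher than in CTRL, and 22.4%, 2.37% and 2.67% lower. Of 15 genes listed under CCR4-NOT and other deadenylases, 9 rose at 1 DPA, 1 at 3 DPA and 1 at 5 DPA. None fell, and the medians were 0.38, -0.00157 and 0.00437. Cnot4, a ubiquitin ligase named with the complex, led at all 3 times (1.37 ± 0.10, 0.80 ± 0.10 and 0.36 ± 0.10, log2 fold change ± SE), and Cnot2 (0.80 ± 0.064) and Cnot10 (0.46 ± 0.063) followed at 1 DPA. The calls at 3 and 5 DPA were those of Cnot4 alone. Of 11 genes of decapping and 5′ decay, 9 rose and 2 fell at 1 DPA, 3 rose at 3 DPA, and 1 rose and 1 fell at 5 DPA. Pnrc1, a nuclear receptor coactivator also tied to decapping, averaged 448, 399 and 158 CPM at 1, 3 and 5 DPA, against 79.4 CPM in CTRL (log2 fold change 2.50 ± 0.15 SE, edgeR adjusted p = 2.72e-07, at 1 DPA). Patl1 (0.85 ± 0.080) and Xrn2 (0.62 ± 0.066) rose at 1 DPA, and Xrn1 fell at 5 DPA (-0.32 ± 0.078). Of 11 other proteins that bind AU-rich elements, 4 rose at 1 DPA, 2 at 3 DPA and 0 at 5 DPA; Hnrnpd rose at 1 DPA (0.86 ± 0.094) and 3 DPA (0.60 ± 0.094), Elavl1 likewise (0.32 ± 0.059 and 0.29 ± 0.059), and Auh at 1 DPA (0.55 ± 0.11).

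Messages known as ZFP36 targets through AU-rich elements include many cytokines and cell cycle regulators. Of 14 tested, 3 rose and 1 fell at 1 DPA, 8 rose at 3 DPA and 6 at 5 DPA, with medians of -0.35, 0.95 and 0.76. The neutrophil chemokines Cxcl1 and Cxcl2 averaged 55.6 and 36.9 CPM at 3 DPA, against 1.21 and 0.482 CPM in CTRL (log2 fold change 5.55 ± 0.70 and 6.30 ± 0.73 SE, edgeR adjusted p = 0.000675 and 0.000401). Plk3, a stress-activated kinase, rose at 1 DPA (2.17 ± 0.17), as did the cytokine Lif (2.09 ± 0.32). The cell cycle inhibitor Cdkn1a averaged 94.7, 286 and 131 CPM at 1, 3 and 5 DPA, against 37.4 CPM in CTRL (log2 fold change 2.93 ± 0.27 SE at 3 DPA). Tnf was the gene that fell at 1 DPA, with 0.0275 to 0.290 CPM against 0.133 to 2.47 CPM in CTRL (log2 fold change -2.75 ± 1.05 SE, edgeR adjusted p = 0.0474), beside the lower macrophage markers given above; their part in it was not tested.

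Of 12 factors that drive early genes through serum response factor or CREB, 5 rose and 2 fell at 1 DPA, 1 rose at 3 DPA and 1 at 5 DPA. Crem, which encodes CREM and its inducible repressor ICER, accounted for the calls at 3 and 5 DPA and averaged 141, 66.9 and 36.6 CPM at 1, 3 and 5 DPA, against 15.9 CPM in CTRL (log2 fold change 3.15 ± 0.19 SE at 1 DPA). Srf (0.41 ± 0.070) and Crtc3 (0.32 ± 0.065) rose at 1 DPA. On the path from MEKK3 through MEK5 and ERK5 to MEF2, which maintains Klf2 and Klf4 in endothelium, 5 of 8 genes rose and 1 fell at 1 DPA, 1 rose and 1 fell at 3 DPA, and 0 passed at 5 DPA by edgeR. Mef2d averaged 393 CPM at 1 DPA and 172 CPM in CTRL (log2 fold change 1.19 ± 0.092 SE, edgeR adjusted p = 1.08e-06), and Map2k5 (0.86 ± 0.093) and Map3k2 (0.76 ± 0.083) rose too. Of 10 endothelial genes known to depend on Klf2 and Klf4, 3 fell at 1 DPA: Nos3 (-0.85 ± 0.21), Cav1 (-0.73 ± 0.19) and Ace (-0.32 ± 0.089). Beside them, 8 of 10 endothelial markers fell at 1 DPA. None of the 10 passed at 3 DPA by edgeR, and Ace was higher at 5 DPA (0.33 ± 0.088). Of 10 early TGF-beta targets, the class in which Klf10 was found, 3 rose and 1 fell at 1 DPA, 4 rose at 3 DPA and 2 at 5 DPA; Skil rose at all 3 times (1.72 ± 0.096, 0.59 ± 0.094 and 0.50 ± 0.094), and Smad7 at 1 DPA (0.99 ± 0.12), while Ski fell at 1 DPA (-0.34 ± 0.066, log2 fold change ± SE).

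Of the 12 classical immediate early genes, 9 rose at 1 DPA, 11 at 3 DPA and 7 at 5 DPA, with medians of 2.11, 3.97 and 2.13, larger at each time than the member medians. Egr1 averaged 514, 5886 and 2223 CPM at 1, 3 and 5 DPA, against 98.5 CPM in CTRL, so that, like Ier2, it was highest at 3 DPA. Nr4a2 was highest at 1 DPA, as was Klf10, with 196, 145 and 59.2 CPM at 1, 3 and 5 DPA, against 4.41 CPM in CTRL.

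Genes whose profile over the 12 libraries was most like that of a member were found by the smallest root-mean-square difference of centred log2 CPM among 12710 genes, which is a description with no test. For Klf10, whose own profile had a root-mean-square size of 1.21, they were the long noncoding RNA gene Epb41l4aos at a difference of 0.239 and Ppp1r10, a nuclear targeting subunit of protein phosphatase 1, at 0.251. Ppp1r10 averaged 80.2 ± 9.67 CPM in CTRL, 876 ± 179.6 at 1 DPA, 283 ± 59.8 at 3 DPA and 167 ± 23.5 at 5 DPA (SD, n = 3 each). For Ier2 (size 1.22) they were the AP-1 gene Junb at 0.322 and the calcineurin inhibitor Rcan1 at 0.331. Rcan1 averaged 25.4 ± 1.59 CPM in CTRL, 86.4 ± 11.1 at 1 DPA, 211 ± 79.9 at 3 DPA and 79.4 ± 10.1 at 5 DPA (SD, n = 3 each).

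**Figure D5:**
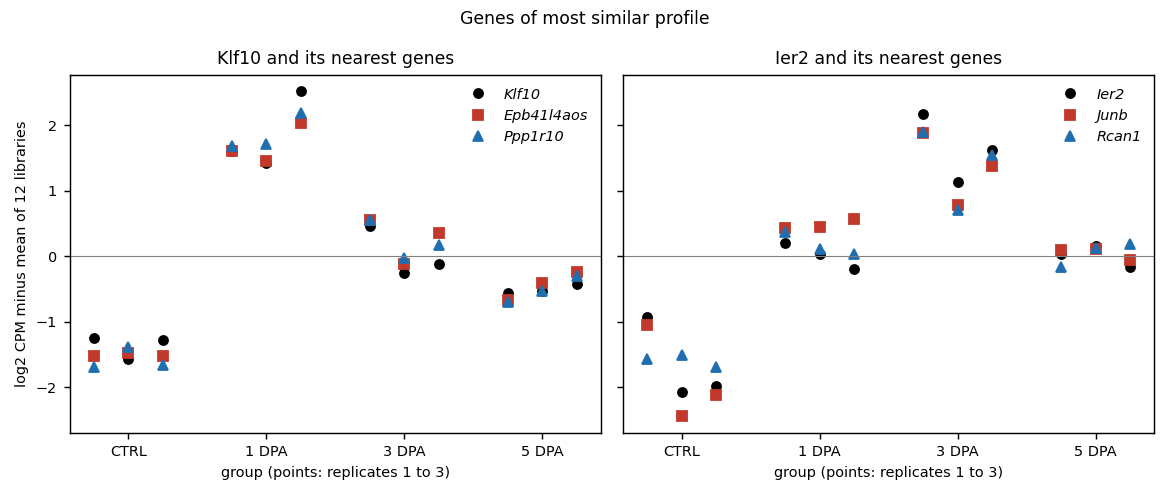
Log2 CPM minus each gene's mean over 12 libraries for Klf10 and Ier2 and the 2 genes nearest to each, by group and replicate. Klf10, Epb41l4aos and Ppp1r10 are highest at 1 DPA, and Ier2, Junb and Rcan1 at 3 DPA, with replicate 2 the lowest of the 3 DPA libraries for Ier2, Junb and Rcan1.

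The Zfp36 profile was nearest to those of Socs3, a feedback inhibitor of cytokine signalling (0.223), and of the matricellular gene Cyr61 (0.235), that of Zfp36l1 to Mgst1 (0.163) and the venular endothelial chemokine receptor Ackr1 (0.177), and that of Zfp36l2 to Sertad1 and Cpne1 (0.145 each). Klf6 was nearest to Def6 (0.125) and Arhgap27 (0.14), Klf2 to the scavenging chemokine receptor Ackr3 (0.169) and Tinagl1 (0.243), and Klf4 to Tpm1 (0.164) and the endothelial lectin gene Clec14a (0.169). Ier3 was nearest to Ldb3 (0.197) and Tmprss2 (0.209), and Btg2 to Abhd11 (0.123) and Fcf1 (0.126). The mean profile of the 10 members was nearest to Dusp1 (0.15), a phosphatase of MAP kinases, followed by Rps27l, Zak, Phlda1, Ier5 and Ldb3. Within the 10, the closest pairs were Klf4 with Ier3 (0.254), Klf4 with Klf6 (0.27) and Zfp36 with Zfp36l1 (0.274), and the farthest was Klf10 with Zfp36l1 (1.6).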

How the data were processed

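RNA was extracted on RNeasy Mini columns and made into stranded mRNA libraries with a QIAseq kit, per the labels' protocols. The authors deposited, per the file headers, whole-number read counts and TPM values per gene for 12 libraries; TPM is normalized for transcript length by the authors. The submitters' processing notes name mm10; the aligner, counter, annotation and strand setting were not given in the sources used here. The analysis took 12 count and 12 TPM columns; a further 24 columns of per-sample values were left out. Counts ran from 29867083 to 50012558 a library. Nothing states that the libraries of a group come from different animals. The p-values therefore cover the spread of these libraries alone, and that may be technical. No replicate pair was as close as sampling noise.

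Genes passing filterByExpr (minimum count 10; 17294 of 48709) were TMM-scaled; edgeR's quasi-likelihood model was fitted over all 12 libraries, 1 mean per group, with Benjamini-Hochberg adjustment over all genes and a threshold of 0.05 (R 4.3.3, edgeR 4.0.16, limma 3.58.1, DESeq2 1.42.0). Standard errors came from the F statistic. CPM are TMM-scaled; log2 CPM used a prior count of 2. The fit was tested on simulated counts. At rises of log2 1 it recovered 68%, 58% and 58% of changed genes for 1, 3 and 5 DPA against CTRL, and at falls 60%, 66% and 66%. At rises of log2 2 it recovered 86%, 86% and 84%, and at falls 88%, 88% and 84%. The simulation changed 50 genes per size and direction, far fewer than the 8916 called at 1 DPA, so recovery in the data may differ. The members and the gene lists were chosen with earlier results of these data known. Beside the members, the text names from each list up to 3 called genes of smallest p per comparison with CTRL (and Tnf, named after its value was seen), the 2 genes nearest in profile to each member, and the 6 nearest to their mean, among genes whose mean log2 CPM was 1 or more. 1 gene that this rule names is not reported here.

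No label states that the replicate numbers pair libraries. For 5 against 3 DPA the deviations of the 3 same-number pairs from their group means correlated at 0.156, 0.187 and 0.326. All were above 0.1, as in no other comparison. In the other comparisons such values ran from -0.465 (5 DPA against CTRL, replicate 3) to 0.127 (3 against 1 DPA, replicate 2). Correlations of this size therefore do not establish a pairing. Other settings were DESeq2, RLE scaling, no filter, only the 2 groups compared, a replicate block, library sizes without the 50 most abundant genes, acinar, macrophage, stromal and endothelial scores as covariates, and leaving out each library. Transcript structure came from GENCODE M21 and promoters from RefSeq (GRCm38.p6).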

Additional observations from a re-analysis of the deposited data

Results flagged for a closer look

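Levels after diphtheria toxin differed between times for 4 members, by a direct test of 1 time against another (edgeR's quasi-likelihood test, Benjamini-Hochberg adjustment over 17294 genes). Of the 10 members, 4 were called at 3 against 1 DPA, 3 at 5 against 1 DPA and 1 at 5 against 3 DPA. Of all genes, 45.1%, 56.1% and 3.16% were called, so the member shares against 1 DPA are not above those of all genes. CTRL was 1 group without a stated day, and the part of the toxin in these differences was not tested. Klf6 and Zfp36l1 were not called against CTRL with all libraries and no covariate. Klf10 was lower at 3 DPA than at 1 DPA (log2 fold change -1.87 ± 0.29 SE, edgeR adjusted p = 0.0006) and lower at 5 DPA than at 1 DPA (log2 fold change -2.44 ± 0.30 SE, edgeR adjusted p = 8.92e-05), in all 3 libraries of each later group. Ier2 was higher at 3 DPA than at 1 DPA (log2 fold change 1.68 ± 0.34 SE, edgeR adjusted p = 0.00303) and lower at 5 DPA than at 3 DPA (log2 fold change -1.69 ± 0.34 SE, edgeR adjusted p = 0.0334), in all 3 libraries each. Klf6 was higher at 3 DPA than at 1 DPA (log2 fold change 0.61 ± 0.21 SE, edgeR adjusted p = 0.0387) and at 5 DPA than at 1 DPA (log2 fold change 0.70 ± 0.21 SE, edgeR adjusted p = 0.0179). Zfp36l1 was higher at 3 DPA than at 1 DPA (log2 fold change 1.16 ± 0.39 SE, edgeR adjusted p = 0.0356) and at 5 DPA than at 1 DPA (log2 fold change 1.30 ± 0.39 SE, edgeR adjusted p = 0.0183), without overlap of libraries. Macrophage, stromal and endothelial markers were also higher at 3 and 5 DPA than at 1 DPA. With a macrophage covariate, 5 against 1 DPA turned to log2 -0.56, adjusted p = 0.0215 for Klf6, and to log2 -0.95, adjusted p = 0.00567 for Zfp36l1 (edgeR), and 3 against 1 DPA was no longer called for either. With a stromal or an endothelial covariate, none of these 4 differences was called (edgeR adjusted p = 0.415 to 0.658).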

How the results depend on the processing

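The directions of Klf10 and Ier2 against CTRL, and of Zfp36l2 at 1, 3 and 5 DPA, were the same in all 22 other settings. The Klf10 call at 3 DPA ended with an acinar covariate (log2 1.14, adjusted p = 0.0573), and the Ier2 call at 5 DPA with only the 2 groups compared (adjusted p = 0.08) and with macrophage or stromal covariates. When the 50 most abundant genes were left out of the library sizes, the median of all genes shifted by -0.125 at 1 DPA against CTRL, 0.110 at 3 against 1 DPA and 0.153 at 5 against 1 DPA (log2). The share of calls that were higher was then 43.4%, in place of 56.6%, at 1 DPA, 79.1%, in place of 68.8%, at 5 DPA, 59.8%, in place of 45.3%, at 3 against 1 DPA, and 60.8%, in place of 46.9%, at 5 against 1 DPA. With 3 libraries a group, an unadjusted p under 0.05 against CTRL was reached by 3, 4 and 4 members at 1, 3 and 5 DPA, and 58 to 68% of simulated rises of log2 1 were recovered, so smaller differences may not pass.

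With no filter, the counts called were 1 member higher and 2 members called for 3 DPA against 1 DPA and 0 members lower for 5 DPA against 3 DPA. With only the 2 groups compared in the fit, the counts called were 622 genes for 5 DPA against CTRL, 5 members higher for 3 DPA against 1 DPA, 899 genes for 5 DPA against 3 DPA and 4 members higher and 5 members called for 5 DPA against 1 DPA. With the replicate block, the counts called were 1 member higher and 2 members called for 3 DPA against 1 DPA and 340 genes for 5 DPA against 3 DPA. With an acinar covariate, the counts called were 1 member higher and 1387 genes for 3 DPA against CTRL and 0 members lower and 247 genes for 5 DPA against 3 DPA. With a macrophage covariate, the counts called were 5 members higher for 1 DPA against CTRL, 5 members higher for 3 DPA against CTRL, 0 members higher and 176 genes for 5 DPA against CTRL, 0 members higher and 2 members lower and 4463 genes for 3 DPA against 1 DPA, 3 members lower and 222 genes for 5 DPA against 3 DPA and 0 members higher and 4 members lower and 3053 genes for 5 DPA against 1 DPA. With a stromal covariate, the counts called were 0 members higher and 285 genes for 5 DPA against CTRL, 1 member higher and 2 members lower for 3 DPA against 1 DPA, 0 members lower and 118 genes for 5 DPA against 3 DPA and 0 members higher and 2 members lower and 4134 genes for 5 DPA against 1 DPA. With an endothelial covariate, the counts called were 2241 genes for 1 DPA against CTRL, 4 members higher for 3 DPA against CTRL, 0 members higher and 0 members lower and 833 genes for 3 DPA against 1 DPA, 45 genes for 5 DPA against 3 DPA, 0 members higher and 0 members lower and 273 genes for 5 DPA against 1 DPA and 3481 genes for the 4 groups. With DESeq2, the counts called were 3 members higher and 2400 genes for 5 DPA against CTRL and 1177 genes for 5 DPA against 3 DPA. Whether the replicate numbers pair libraries is not known. The block ended the calls of Klf6 (adjusted p = 0.0656) and Zfp36l1 (adjusted p = 0.052) at 3 against 1 DPA and no other member call. The causes of these changes were not tested, except that a covariate built from markers that differ between groups takes up part of the group difference.

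Leaving out 1 library at a time gave 0 to 3 members lower and 3 to 6 members called for 1 DPA against CTRL, 2 to 6 members higher, 1372 to 2801 genes called and 2 to 6 members called for 3 DPA against CTRL, 0 to 5 members higher, 462 to 2137 genes called and 0 to 5 members called for 5 DPA against CTRL, 1 to 5 members higher and 2 to 6 members called for 3 DPA against 1 DPA, 0 to 1 member lower, 31 to 1018 genes called and 0 to 1 member called for 5 DPA against 3 DPA, 0 to 3 members higher and 1 to 4 members called for 5 DPA against 1 DPA, and 2 to 8 members differing over the 4 groups. All genes called were 7852 to 9619 for 1 DPA against CTRL and 6173 to 8634 for 3 against 1 DPA. They were 8492 to 10202 for 5 against 1 DPA and 8584 to 10492 over the 4 groups. Libraries whose absence moved the count of all genes by over 1.5 times were CTRL replicate 2 (726), CTRL replicate 3 (745), 5 DPA replicate 1 (462) and 5 DPA replicate 3 (823) for 5 DPA against CTRL, CTRL replicate 2 (314), CTRL replicate 3 (1018), 1 DPA replicate 2 (347), 3 DPA replicate 1 (48), 3 DPA replicate 2 (288), 3 DPA replicate 3 (186), 5 DPA replicate 1 (33), 5 DPA replicate 2 (31) and 5 DPA replicate 3 (70) for 5 DPA against 3 DPA and 3 DPA replicate 1 (1372) for 3 DPA against CTRL. Those that moved the count of members were CTRL replicate 1 (6) for 3 DPA against CTRL, CTRL replicate 1 (5), CTRL replicate 2 (0), CTRL replicate 3 (0), 1 DPA replicate 3 (2), 5 DPA replicate 1 (0) and 5 DPA replicate 2 (0) for 5 DPA against CTRL, CTRL replicate 3 (6) for 1 DPA against CTRL, 1 DPA replicate 1 (2), 1 DPA replicate 2 (2), 1 DPA replicate 3 (2), 3 DPA replicate 1 (2) and 3 DPA replicate 3 (2) for 3 DPA against 1 DPA, 1 DPA replicate 1 (0), 1 DPA replicate 2 (0), 3 DPA replicate 1 (0), 3 DPA replicate 3 (0), 5 DPA replicate 1 (0), 5 DPA replicate 2 (0) and 5 DPA replicate 3 (0) for 5 DPA against 3 DPA and 1 DPA replicate 1 (1) and 5 DPA replicate 3 (1) for 5 DPA against 1 DPA. Of values not called with all libraries, signs changed over these ranges of log2 fold change: 1 DPA against CTRL Klf4 -0.37 to 0.12, Klf6 -0.42 to 0.027, Zfp36 -0.80 to 0.21 and Ier3 -0.11 to 0.61, 3 DPA against CTRL Klf2 -0.48 to 0.14, 5 DPA against CTRL Klf2 -0.24 to 0.40, Klf4 -0.073 to 0.44 and Btg2 -0.092 to 0.11, 3 DPA against 1 DPA Btg2 -0.024 to 0.22, 5 DPA against 3 DPA Klf4 -0.24 to 0.021, Klf6 -0.030 to 0.17, Zfp36l1 -0.025 to 0.29, Zfp36l2 -0.075 to 0.084 and Ier3 -0.092 to 0.11, 5 DPA against 1 DPA Ier2 -0.080 to 0.090.

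With no filter, the sign changed to log2 Ier3 0.012 for 5 DPA against 3 DPA and Ier2 0.031 for 5 DPA against 1 DPA. With only the 2 groups compared in the fit, the sign changed to log2 Btg2 -0.0014 for 5 DPA against CTRL and Ier2 0.027 for 5 DPA against 1 DPA. With the replicate block, the sign changed to log2 Ier2 0.011 for 5 DPA against 1 DPA. With library sizes without the 50 most abundant genes, the sign changed to log2 Ier3 0.021 for 5 DPA against 3 DPA and Ier2 0.15 for 5 DPA against 1 DPA. With an acinar covariate, the sign changed to log2 Klf2 0.16 for 3 DPA against CTRL and Ier2 0.027 for 5 DPA against 1 DPA. With a macrophage covariate, the sign changed to log2 Klf2 0.58, Klf4 0.25, Klf6 0.52, Zfp36 0.57 and Zfp36l1 0.62 for 1 DPA against CTRL, Klf2 -0.45, Klf4 -0.22, Klf6 -0.046, Zfp36 -0.28, Zfp36l1 -0.33 and Btg2 -0.060 for 5 DPA against CTRL, Klf2 -0.67, Klf4 -0.071, Klf6 -0.17, Zfp36 -0.026, Zfp36l1 -0.23 and Ier3 -0.27 for 3 DPA against 1 DPA, Klf2 -0.36, Klf6 -0.39, Zfp36l1 -0.72 and Zfp36l2 -0.34 for 5 DPA against 3 DPA and Klf2 -1.03, Klf4 -0.47, Klf6 -0.56, Zfp36 -0.85, Zfp36l1 -0.95 and Ier3 -0.65 for 5 DPA against 1 DPA. With a stromal covariate, the sign changed to log2 Klf2 0.32, Klf4 0.17, Klf6 0.21, Zfp36 0.21 and Zfp36l1 0.088 for 1 DPA against CTRL, Klf2 -0.43, Klf4 -0.29, Zfp36 -0.17, Zfp36l1 -0.13 and Btg2 -0.019 for 5 DPA against CTRL, Klf2 -0.51, Klf4 -0.053 and Ier3 -0.15 for 3 DPA against 1 DPA, Klf2 -0.24, Klf6 -0.23, Zfp36l1 -0.45 and Zfp36l2 -0.23 for 5 DPA against 3 DPA and Klf2 -0.75, Klf4 -0.46, Klf6 -0.13, Zfp36 -0.38, Zfp36l1 -0.21 and Ier3 -0.48 for 5 DPA against 1 DPA. With an endothelial covariate, the sign changed to log2 Klf2 1.36, Klf4 0.98, Klf6 0.83, Zfp36 1.45 and Zfp36l1 1.39 for 1 DPA against CTRL, Klf2 0.13 for 3 DPA against CTRL, Klf2 -0.069, Klf4 -0.086 and Btg2 -0.062 for 5 DPA against CTRL, Klf2 -1.23, Klf4 -0.64, Klf6 -0.30, Zfp36 -0.60, Zfp36l1 -0.67, Ier3 -0.98 and Btg2 -0.23 for 3 DPA against 1 DPA, Klf2 -0.20, Klf6 -0.17, Zfp36l1 -0.37 and Zfp36l2 -0.14 for 5 DPA against 3 DPA and Klf2 -1.43, Klf4 -1.06, Klf6 -0.47, Zfp36 -1.22, Zfp36l1 -1.03 and Ier3 -1.40 for 5 DPA against 1 DPA.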
